A study of Mus musculus with 12 samples.

Results

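Insulin was compared with vehicle after 24 h of exposure in mHypoE-46 cells, an immortalised line of embryonic mouse hypothalamic neurons from a male animal, in which the appetite-promoting neuropeptide Y and agouti-related peptide are made. The comparison takes 6 of the 12 libraries of the series: 3 replicates given 100 nM insulin (insulin 24 h) and 3 replicates given phosphate buffered saline alone (vehicle 24 h). Both groups grew in the same serum-containing medium, and the labels record no genetic change in either. The other 6 libraries hold the same agents at 4 h, which the labels place before insulin resistance develops, with 24 h after it. Resistance itself is not among the values read here. The cells are 1 immortalised line, so the replicates do not sample different animals. The series describes 3 independent runs of the experiment, and nothing says how each culture was made. MicroRNAs were counted on a NanoString nCounter mouse panel, in which coloured barcodes bound to each target are counted 1 by 1 without amplification. The panel held 566 mouse miRNA probes among 620 probes in all. The threshold of a library was the mean of its negative controls plus 2 SD. A probe was tested if it exceeded the threshold in 3 or more of the 6 libraries, which 145 of 566 did. A further 341 exceeded it in none of the 6 libraries.

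A miRNA is a short RNA that guides Argonaute proteins to messenger RNAs through its seed, the bases near its 5′ end, and lowers their translation or stability. Insulin acts on neurons of this type through its receptor, insulin receptor substrates, PI3 kinase and Akt, and among other effects restrains the appetite-promoting neuropeptides they make. Prolonged insulin is known to dampen this pathway in such cells, and miRNAs of several families, let-7 and the pair of miR-103 and miR-107 among them, are known in mouse tissues to act on its components.

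The miRNAs on which the comparison turns are shown first. Their mature sequences come from RefSeq on GRCm38.p6, written 5′ to 3′ with the seed (bases 2 to 8) in capitals. A RefSeq mature sequence was found for 115 of the 145 tested probes. The probe table gives older names without an arm for many miRNAs. Those were assigned an arm from general knowledge, as a rule the guide arm, and miR-191 was read as its 3p arm. Single assignments are therefore uncertain. The first set holds the miRNAs called when replicates were paired, with let-7a and let-7d beside miR-98 because they share its seed.
miR-20a: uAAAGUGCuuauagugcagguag
miR-20b: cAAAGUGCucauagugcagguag
miR-98: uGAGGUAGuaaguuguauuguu
let-7d: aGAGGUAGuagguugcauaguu
let-7a: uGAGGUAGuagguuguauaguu
miR-296-5p: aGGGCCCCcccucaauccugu
The second set holds other miRNAs of small p and, among pairs of shared seed whose relative levels did not overlap between groups, those that shifted most.
miR-1983: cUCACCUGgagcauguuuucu
miR-409-5p: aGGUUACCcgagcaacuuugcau
miR-132: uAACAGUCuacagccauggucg
miR-33: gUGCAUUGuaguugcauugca
miR-103: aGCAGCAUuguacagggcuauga
miR-107: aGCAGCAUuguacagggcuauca
miR-26a: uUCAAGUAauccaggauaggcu
miR-26b: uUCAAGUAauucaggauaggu

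By RefSeq, miR-20a lies at chr14:115044183-115044205 on the plus strand and miR-20b at chrX:52742159-52742181 on the minus strand. A single probe reads both, so their counts cannot be separated. The mature miR-98 lies at chrX:151913229-151913250 within the span of Huwe1, and miR-296-5p at chr2:174267093-174267113, with no other gene of the table spanning it. Within the spans of other genes lie miR-33 (chr15:82198127-82198147, in Srebf2), miR-107 (chr19:34820700-34820722, in Pank1) and miR-26b (chr1:74394324-74394344, in Ctdsp1). The table gives gene spans and not exons, so exonic and intronic positions are not given. Copies of miR-103 lie in Pank3 (chr11:35782447-35782469) and Pank2 (chr2:131288103-131288125).

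Mouse miRNA counts totalled 180539, 269357 and 250474 in vehicle replicates 1, 2 and 3 and 142491, 379809 and 221668 in insulin. The means did not differ beyond the spread (insulin over vehicle 1.06, exact permutation p = 0.9, two-sided, n = 3 each), and with 3 libraries against 3 the smallest p this test allows is 0.1. The number of mouse miRNAs above the threshold was 118 to 201 in vehicle and 130 to 169 in insulin (exact permutation p = 0.8). Housekeeping mRNA signal per 1000 miRNA counts was 19.2 ± 4.65 in vehicle and 23.7 ± 6.59 in insulin (SD, n = 3 each, exact permutation p = 0.4). Insulin 24 h replicate 1 stood apart. It had the lowest total of the 6, a negative control mean of 25.0 where the other 24 h libraries had 34.5 to 61.9, and Gapdh at 5.23% of Actb where the other 11 libraries of the series had 12.7% to 16.6%. Its log CPM correlated across miRNAs with the other insulin libraries at r = 0.9746 and 0.9744, and the other pairs within a group lay between 0.9905 and 0.9959 (across miRNAs, which are not independent). Its part in the results was not tested beyond leaving it out, which is given below beside the calls and the lists.

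**Figure D1:**
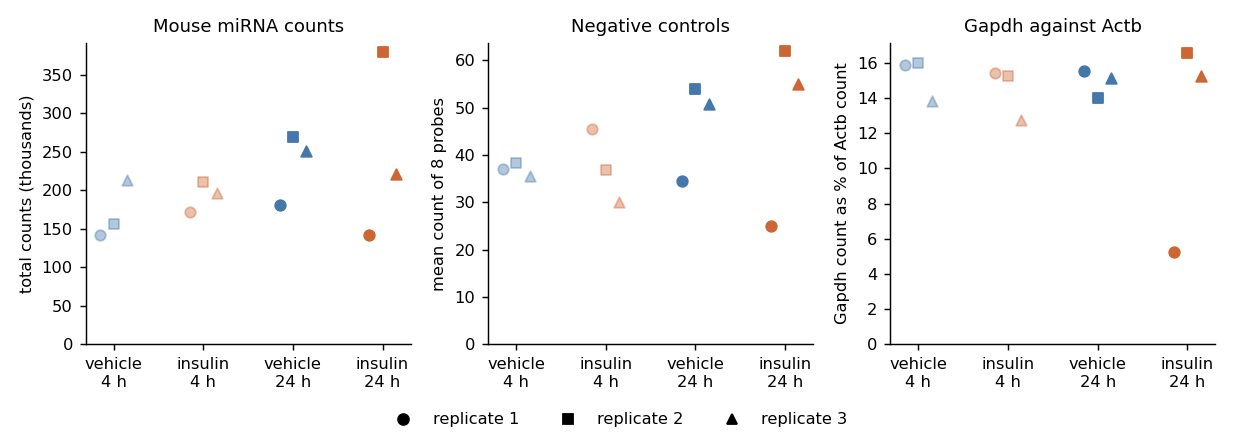
Library measures by group and replicate for all 12 libraries: total mouse miRNA counts, mean count of the 8 negative control probes, and Gapdh as a percent of Actb. Each point is 1 library, and insulin 24 h replicate 1 lies lowest in the panels of negative controls and of Gapdh.

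The neuronal label was set against marker miRNAs. Counts of miR-9, a miRNA of neural progenitors and neurons, were 879 to 1916 and above the threshold in 6 of 6 libraries. Counts of miR-124, the most abundant miRNA of mature neurons, were 17 to 95, and of miR-138 14 to 22, with neither above the threshold in any library. Neuronal miR-218 was above it in 6 of 6, miR-132 in 5, miR-7a in 4 and miR-128 in 3. Of the markers of other cells, 6 of 10 epithelial and sensory, 8 of 15 glial and mesenchymal and 13 of 19 blood, endothelial, liver and muscle miRNAs were above it in no library. The erythroid miR-451 (10 to 18 counts), liver miR-122 (38 to 64) and oligodendrocyte miR-219 (25 to 39) were among these. Other markers were well above the threshold: 7 of the 15 glial and mesenchymal miRNAs exceeded it in all 6 libraries, against 2 of the 7 neuronal ones. They were miR-27a (2024 to 4902 counts), miR-23a (1393 to 3641), miR-24 (517 to 1814), miR-140 (495 to 1117), miR-145 (351 to 814), miR-143 (246 to 677) and miR-338-5p (77 to 210), so miR-27a lay above miR-9. Some of these serve in 2 lists of this report: miR-338-5p is also in the neuron-enriched list below. Likewise miR-27a, miR-23a and miR-24 are in the activity- and stimulus-responsive list. Of the epithelial and sensory markers, miR-96 (180 to 390) and miR-200b (89 to 263) exceeded the threshold in 6 of 6. All panel probes of the 3 lists of other cells, tested or not, summed to 0.349% to 0.459%, 3.60% to 3.91% and 0.342% to 0.461% of the counts over the 6 libraries. These sums therefore include probes near background. In each list the ranges of the vehicle and insulin libraries overlapped. In RNA from whole cultures, fewer cells of a type and less RNA per cell cannot be told apart.

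The probes of highest count, which reflects probe efficiency as well as abundance, had close levels in both groups. The probe miR-720, known to read a tRNA fragment, led with 109940 ± 5752 CPM in vehicle and 111610 ± 10876 CPM in insulin (CPM, depth-scaled counts after TMM scaling, SD, n = 3 each). The brain-enriched miR-125b-5p followed at 94839 ± 9747 and 101900 ± 21129 CPM, and miR-29b, which in mouse adipocytes represses insulin signalling, at 73735 ± 8667 and 74725 ± 8290 CPM. Their log2 fold changes of insulin over vehicle were 0.02 (SE 0.13), 0.10 (SE 0.17) and 0.02 (SE 0.15). Of the rest of the 10 most abundant, let-7c was at -0.05, miR-16 at 0.18, miR-21 at 0.02, miR-29a at 0.02, let-7a at 0.10, miR-125a-5p at 0.12 and let-7d at 0.30, none of which passed the test. The share of each library taken by its 10 most abundant miRNAs was 53.5% ± 1.07 in vehicle and 53.8% ± 1.31 in insulin (exact permutation p = 0.9).

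The comparison of insulin with vehicle asks which miRNAs stand at another level after prolonged insulin. Taken as unpaired groups, 0 of the 145 tested miRNAs passed (0.0%; edgeR quasi-likelihood F test, two-sided, smallest Benjamini-Hochberg adjusted p = 0.996), and 4 had an unadjusted p under 0.05, where 7.25 would have one with no difference. DESeq2 and limma on the deposited signals also called 0, with 3 and 4 at an unadjusted p under 0.05. The median log2 fold change was 0.03, and 84 of 145 values lay above 0 (57.9%). The 95% confidence interval excluded a 2-fold change in either direction for 144 miRNAs and a 1.5-fold change for 90. These are bounds on counts with background included, which draws low miRNAs towards no change. They hold under TMM scaling only, and scaling to housekeeping mRNAs moved the median log2 fold change to -0.31.

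Libraries of the same number were treated as partners, which no label states for single samples. The series describes independent runs, and the deviations of same-numbered vehicle and insulin libraries from their group means correlated at 0.589, 0.527 and 0.263. Unmatched vehicle replicate 2 and insulin replicate 3 correlated at 0.272, above the matched pair of replicate 3. The other unmatched combinations lay between -0.551 and 0.0451. For each miRNA the deviations within a group sum to 0, so positive matched values draw the unmatched ones down. Same-numbered libraries also lay in adjacent lanes (7 and 8, 9 and 10, 11 and 12). In both groups replicate 1 had the lowest and replicate 2 the highest total count. Shared runs, lanes and depth cannot be told apart here. The blocked calls rest on this assumed pairing. With the replicate number as a block, 3 miRNAs passed and each was higher in insulin (2.07% of 145): miR-20a+miR-20b, miR-98 and miR-296-5p, each with an adjusted p of 0.0339 (edgeR). In all, 11 had an unadjusted p under 0.05. Each of the 3 was higher in 3 of 3 pairs, as were 27 of the 145 tested (18.6%), while 11 were lower in 3 of 3 (7.59%). The blocked fit had 2 residual degrees of freedom and an infinite prior, so each miRNA took the spread fitted for miRNAs of its level and none kept its own. None of the 3 passed in the blocked fit with DESeq2 (smallest adjusted p = 0.253), with limma on the deposited signals (0.535), with positive control scaling (0.971), with all 12 libraries (0.264) or without any 1 pair (0.177 to 0.669).

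**Figure D2:**
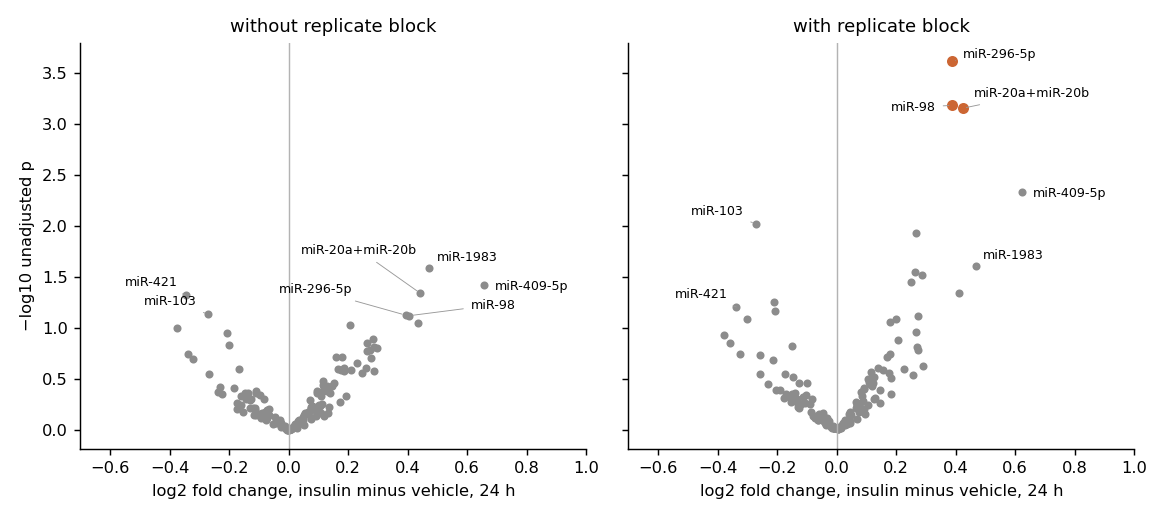
Log2 fold change of insulin over vehicle at 24 h against −log10 of the unadjusted p for the 145 tested miRNAs, without (left) and with (right) the replicate block. Orange points passed an adjusted p of 0.05: none on the left, and miR-296-5p, miR-98 and miR-20a+miR-20b on the right.

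The probe miR-20a+miR-20b reads members of the miR-17-92 cluster and its X-linked paralogue, which in mouse and human cells promote proliferation and repress cell cycle regulators such as E2F1. It stood at 6963, 9029 and 7469 CPM in vehicle replicates 1, 2 and 3 and at 7756, 12611 and 11479 CPM in insulin. Insulin replicates 2 and 3 lay above every vehicle library, whereas replicate 1 lay inside the vehicle range. Fitted unpaired, the log2 fold change reached 0.44 (SE 0.19, 95% interval from 0.01 to 0.87), and paired it was 0.42 (SE 0.12, interval 0.18 to 0.67), with pair differences of 0.16, 0.48 and 0.62. Counts were high, from 950 to 4342. Without insulin replicate 2 the unpaired value was 0.27.

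A member of the let-7 family, miR-98 shares a seed that in mouse is known to repress the insulin receptor and its substrate Irs2. Its level was 3028, 4285 and 3955 CPM in vehicle and 3511, 5693 and 5674 CPM in insulin. The groups overlapped through insulin replicate 1, and that library still lay above its own partner. The fit gave a log2 fold change of 0.40 (SE 0.20, interval -0.05 to 0.86) unpaired and 0.39 (SE 0.11, interval 0.17 to 0.61) paired, and the pair differences were 0.21, 0.41 and 0.52. Without insulin replicate 2 the unpaired value was 0.27.

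Transcribed from the imprinted Gnas region, miR-296-5p stood at 996, 1616 and 1444 CPM in vehicle and 1355, 1998 and 1952 CPM in insulin. Vehicle replicate 1 was the lowest and insulin replicate 1 fell within the vehicle range. A log2 fold change of 0.39 (SE 0.20) was fitted unpaired and 0.39 (SE 0.10, interval 0.18 to 0.59) paired, with even pair differences of 0.44, 0.31 and 0.44. Its counts were 166 to 688. Without vehicle replicate 1 the unpaired value was 0.22.

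Leaving out insulin replicate 1 in the unpaired fit gave 3 called miRNAs, each higher in insulin (2.07% of 145) with an adjusted p of 0.0294 (edgeR): miR-20a+miR-20b at 0.62 (SE 0.13), miR-98 at 0.59 (SE 0.13) and miR-30d at 0.48 (SE 0.11). A pair of them, 2 of 3, were also called in the blocked fit. With all libraries miR-30d, reported in mouse islet cells to raise insulin transcription, was at 1269, 1552 and 1313 CPM in vehicle and 1094, 1929 and 1934 CPM in insulin. Insulin replicate 1 lay below every vehicle library and the other insulin libraries above every one. It was picked out after its values were seen. Leaving out any other 1 library left 0 called.

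**Figure D3:**
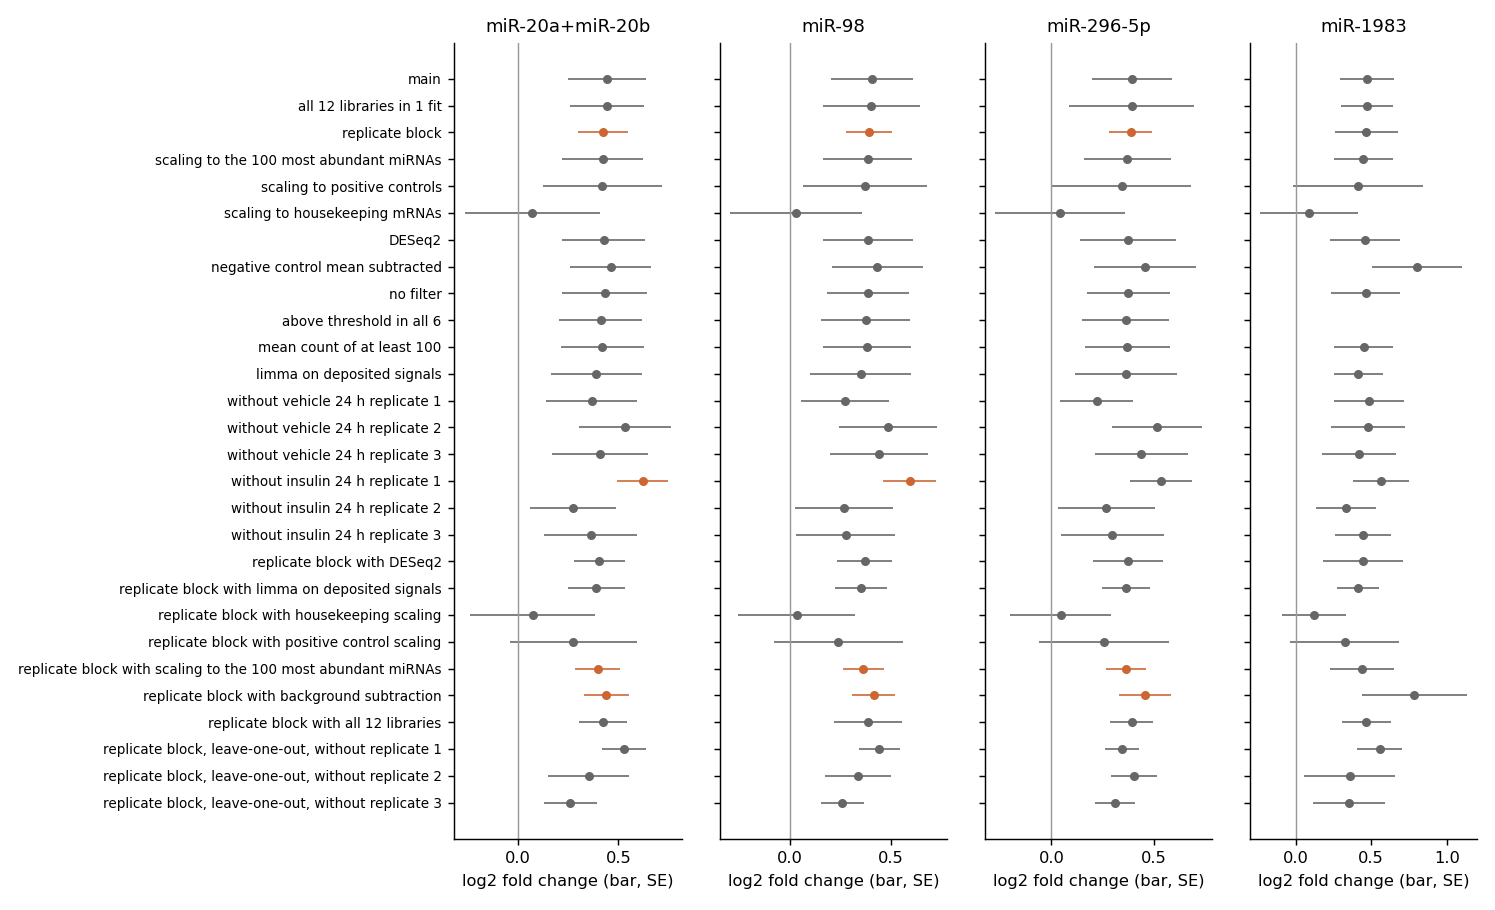
Log2 fold change (point) with its standard error (bar) of miR-20a+miR-20b, miR-98, miR-296-5p and miR-1983 under the reported fit and each alternative, on the scale of that alternative. Orange marks an adjusted p under 0.05, and housekeeping scaling draws the 4 probes to between 0.03 and 0.12.

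Of the other miRNAs above 0, miR-1983 had the smallest unpaired p. It has been reported in mouse hypothalamic cells to repress the insulin receptor, and its sequence has also been assigned to a tRNA. It stood at 437, 448 and 398 CPM in vehicle and 498, 668 and 594 CPM in insulin. The groups did not overlap, and insulin replicate 1 was the closest to vehicle. The log2 fold change was 0.47 (SE 0.18, interval 0.07 to 0.87, adjusted p = 0.996; paired 0.47, adjusted p = 0.483). Counts were low, from 61 to 230, and exceeded the threshold in 1 of 3 vehicle and 3 of 3 insulin libraries, so the filter was met mainly through insulin.

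The value furthest from 0 was that of miR-409-5p, a miRNA of the imprinted Dlk1-Dio3 cluster. It was at 419, 412 and 296 CPM in vehicle and 694, 386 and 722 CPM in insulin. Insulin replicate 2 lay inside the vehicle range and the others well above it. The log2 fold change was 0.66 (SE 0.27), and paired it was 0.62 (edgeR, adjusted p = 0.167). Its counts, 70 to 153, exceeded the threshold in 1 vehicle and 3 insulin libraries. The filter was thus met mainly through insulin, the group in which it was higher.

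The CREB-induced miR-132, which shapes dendrite growth, stood at 454, 463 and 423 CPM in vehicle and 392, 636 and 755 CPM in insulin. Here insulin replicate 1 lay below every vehicle library and the other insulin replicates above every one. The log2 fold change was 0.43 (SE 0.23; paired 0.41, adjusted p = 0.591), and 0.22 without insulin replicate 3. Its cluster partner miR-212 had 15 to 28 counts, above the threshold in 0 of 6 libraries, and was not tested.

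The rest of the 12 miRNAs of smallest p above 0 were miR-107 at 0.20, miR-135a at 0.28, miR-378 at 0.26, miR-218 at 0.29, let-7d at 0.30 and miR-31 at 0.27, none of which passed. Of these, miR-378 lies in the gene of a mitochondrial coactivator and in mouse restrains oxidative metabolism. It was at 565, 479 and 606 CPM in vehicle and 735, 659 and 594 CPM in insulin, with overlap through replicate 3. Neuronal miR-218 was at 437, 527 and 542 CPM in vehicle and 547, 552 and 740 CPM in insulin, just apart. Single libraries moved these values by over 1.5 times. Without insulin replicate 2, miR-31 was at 0.07, let-7d at 0.12 and miR-107 at 0.13. Without insulin replicate 3, miR-218 was at 0.10 and miR-135a at 0.15, and without vehicle replicate 2 miR-378 was at 0.14.

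Among miRNAs below 0, miR-421 had the smallest p. It stood at 821, 685 and 733 CPM in vehicle and 531, 566 and 656 CPM in insulin, and the groups did not overlap. The log2 fold change was -0.35 (SE 0.15, interval -0.68 to -0.01, adjusted p = 0.996; paired -0.34, adjusted p = 0.690). Its 4 h value was -0.34, close to that at 24 h.

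Hosted by the sterol regulator Srebf2, miR-33 represses the cholesterol exporter Abca1. It was at 466, 463 and 453 CPM in vehicle and 400, 311 and 368 CPM in insulin. Each insulin library lay below all vehicle libraries, which were close to each other, at a log2 fold change of -0.38 (SE 0.21; paired -0.38, adjusted p = 0.837). The counts, 49 to 117, exceeded the threshold in 2 vehicle libraries and 1 insulin library.

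The rest of the 12 of smallest p below 0 were miR-103 at -0.27, miR-30b at -0.21, miR-96 at -0.20, miR-345-5p at -0.34, miR-467f at -0.32, miR-450a-5p at -0.17, miR-181b+miR-181d at -0.27, miR-466d-3p at -0.23, miR-1928 at -0.18 and miR-1224 at -0.11. None passed, with or without the block. Of these miR-30b did not overlap between groups, at 4972, 4717 and 4721 CPM in vehicle and 3829, 4209 and 4419 CPM in insulin. Nor did miR-96, a sensory-cell miRNA that in human cells represses IRS1, at 1543, 1481 and 1550 CPM in vehicle and 1470, 1133 and 1406 CPM in insulin. The value of miR-181b+miR-181d rested on insulin replicate 1, at 400 CPM where the other 5 libraries had 762 to 915 CPM. Its log2 fold change was -0.27 with all libraries and -0.04 without that library, but -0.47 without insulin replicate 3. Other values moved by over 1.5 times as well. Without vehicle replicate 3, miR-466d-3p was at -0.04 and miR-467f at -0.18. Without insulin replicate 2, miR-1928 was at -0.07, miR-96 at -0.12 and miR-103 at -0.45. Without insulin replicate 1, miR-1224 was at -0.07 and miR-450a-5p at -0.26, and without insulin replicate 3 miR-345-5p was at -0.55.

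**Figure D4:**
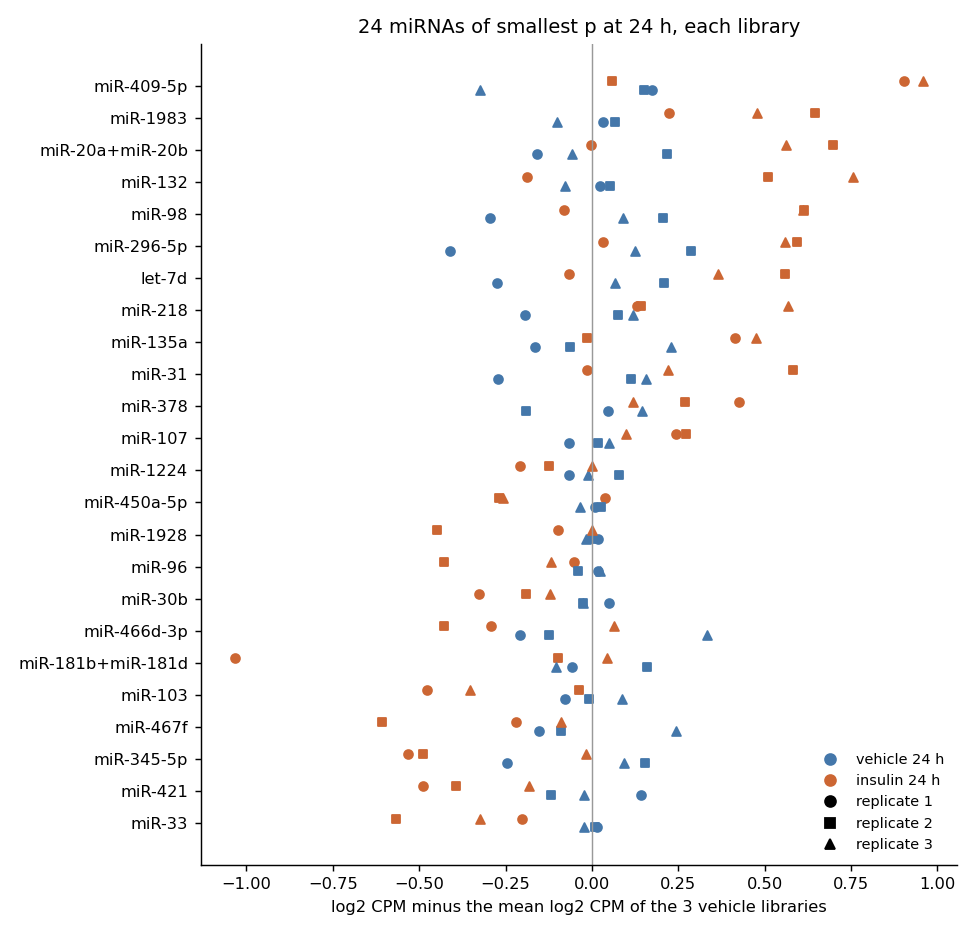
Log2 CPM of each of the 6 libraries minus the mean log2 CPM of the 3 vehicle libraries, for the 12 miRNAs of smallest p in each direction. Colour marks the group and shape the replicate number, and insulin replicate 1 (orange circle) lies below the other insulin libraries for miR-20a+miR-20b, miR-98 and miR-296-5p.

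Over all tested miRNAs, the 3 insulin libraries lay above the 3 vehicle libraries for 8 (5.52%) and below them for 4 (2.76%), so 12 of 145 did not overlap (8.28%). Besides miR-1983, miR-107, miR-218 and miR-34b-5p, the 8 held miR-423-3p at 0.16, miR-193 at 0.18, miR-324-5p at 0.19 and miR-23b at 0.07, which were picked out after their values were seen. The p53-induced miR-34b-5p stood at 373, 356 and 368 CPM in vehicle and 416, 398 and 500 CPM in insulin. Its counts, 51 to 137, exceeded the threshold in 1 vehicle library and 2 insulin libraries. The 4 were miR-421, miR-33, miR-30b and miR-96.

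Families and pathway lists are described by the values of their tested members beside those of all miRNAs, of which 84 of 145 lay above 0 (71 with scaling to the 100 most abundant miRNAs, 45 to positive controls and 6 to housekeeping mRNAs, and 77 without insulin replicate 1). The lists share members and none was tested as a set. Every list had 0 members called in the unpaired fit.

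All 9 let-7/miR-98 probes on the panel were tested. Of these 7 lay above 0 at a median of 0.08, and 7, 2 and 1 lay above 0 under the 3 other scalings in that order. The called miR-98 (paired) and let-7d were the highest, with let-7d at 21315, 29824 and 27015 CPM in vehicle and 24625, 38020 and 33236 CPM in insulin. It was higher in each pair and overlapped between groups (0.30, SE 0.19; paired adjusted p = 0.483). The others lay between -0.05 (let-7c) and 0.10 (let-7f). Without insulin replicate 1, 3 of 9 lay above 0 and the median was -0.09. The family summed to 16.7% to 18.1% of vehicle counts and 16.8% to 18.3% of insulin counts. Since let-7 members differ by few bases, values of single members are uncertain.

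The miR-17-92 and paralogous clusters had 8 of 11 probes tested, of which 6 lay above 0 (median 0.08; 6, 2 and 1 under the other scalings). Without insulin replicate 1, 5 of 8 lay above 0 and the median was 0.03. Beside miR-20a+miR-20b these included miR-106a+miR-17 at 0.17 (SE 0.14), miR-19b at 0.11 (SE 0.14) and miR-93 at 0.09 (SE 0.11), while miR-18a was at -0.04. All 11 panel probes, tested or not, made up 5.74% to 5.95% of vehicle counts and 6.02% to 6.37% of insulin counts, ranges that did not overlap. The sum holds miR-20a+miR-20b, with 1196 to 2280 counts in vehicle and 950 to 4342 in insulin. It is therefore not separate from the blocked call of that probe. The sum was looked at among the 10 lists with no test, and in every other list the ranges overlapped. Of the miR-15/16 family, which restrains the cell cycle, 3 of 4 lay above 0 (median 0.02; 1, 1 and 0 under the other scalings; median 0.11 without insulin replicate 1), with miR-16 at 0.18 (SE 0.15) and miR-15b at -0.09 (SE 0.20).

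Of miRNAs reported to act on insulin signalling or glucose and lipid metabolism, 32 of 45 probes were tested and 19 lay above 0 (median 0.02; 13, 10 and 1 under the other scalings; 18 above 0 and median 0.05 without insulin replicate 1). It holds miR-1983, which entered from knowledge of the study's own interest and is not independent there. Both directions were found among its best known members. For miR-143, which blunts Akt activation in mouse liver, the value was -0.00 (SE 0.12), with 1882 ± 151 CPM in vehicle and 1883 ± 182 CPM in insulin. Its neighbour miR-145 had -0.10 (SE 0.12), miR-29a 0.02 (SE 0.19), miR-29c 0.18 (SE 0.15) and miR-26a -0.13 (SE 0.16). The leukocyte miR-223, also on the list, had counts of 136, 53 and 47 in vehicle and 78, 61 and 25 in insulin, above the threshold in 2 of 6 libraries, and was not tested.

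Neuron-enriched miRNAs had 10 of 31 probes tested and 6 above 0 (median 0.10; 6, 6 and 1 under the other scalings; 7 above 0 and median 0.17 without insulin replicate 1), led by miR-132, miR-218 and miR-135a, with miR-9 at -0.07 (SE 0.14) and miR-7a at -0.16 (SE 0.21). Activity- and stimulus-responsive miRNAs had 14 of 23 tested and 12 above 0 (median 0.07; 9, 5 and 1 under the other scalings; 11 above 0 without insulin replicate 1), with miR-132 at 0.43, miR-34b-5p at 0.26, miR-222 at 0.12 and miR-221 at 0.11. Probes reported to read tRNA fragments lay above 0 for 6 of 6 (median 0.13; 5, 3 and 1 under the other scalings), but for 4 of 6 at a median of 0.07 without insulin replicate 1. They held miR-1274a at 0.25 (SE 0.21), miR-1937c at 0.14 (SE 0.24) and miR-1944 at 0.13 (SE 0.15). The 3 tested epithelial and sensory markers lay below 0 (miR-96, miR-183 at -0.13 and miR-200b at -0.01; 1 of 3 above 0 without insulin replicate 1). Glial and mesenchymal markers lay above 0 for 3 of 7 (4 without that library), with miR-338-5p at 0.11, miR-23a at 0.08 and miR-27a at 0.06. Blood and muscle markers lay above 0 for 2 of 3 (3 without it, median 0.36 against 0.05), with miR-206 at 0.17, miR-133a at 0.05 and miR-194 at -0.16.

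The 115 tested probes with a matched RefSeq sequence were also grouped by shared seed, which sets the messages a miRNA can bind. Among them 17 seeds had at least 2 members. Tested probes without a matched sequence, miR-30b, miR-30d, miR-34c and miR-23b among them, stayed outside these groups and the pairs formed from them. No seed had more than 1 called member. Within the AAAGUGC seed of miR-20a, 4 of 4 tested probes lay above 0, from 0.04 (miR-106b) to 0.44 (miR-20a+miR-20b). Members of some pairs lay on opposite sides of 0. To compare them free of scaling, the log2 ratio of the counts of each pair was taken within each library.

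The pair with the furthest shift was miR-103 and miR-107, which lie in pantothenate kinase genes and in mouse lower insulin sensitivity when raised. Their mature sequences differ by G22C (miR-103 to miR-107, counted from the 5′ end), outside the seed, so how far the probes tell them apart is uncertain. The log2 ratio of miR-103 over miR-107 was 0.61, 0.59 and 0.66 in vehicle and -0.10, 0.31 and 0.17 in insulin. Every insulin library had a lower ratio than every vehicle library, with a mean of 0.62 ± 0.03 in vehicle and 0.13 ± 0.21 in insulin (SD, n = 3 each). The exact permutation p was 0.1, the smallest possible. In single terms miR-103 stood at 1776, 1865 and 1990 CPM in vehicle and 1347, 1827 and 1467 CPM in insulin (paired log2 fold change -0.27, adjusted p = 0.274), and miR-107 at 1164, 1236 and 1262 CPM in vehicle and 1445, 1473 and 1306 CPM in insulin.

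Among pairs without overlap between groups, the next was miR-26a and miR-26b, which lie in phosphatase genes and of which miR-26a is known in mouse liver to raise insulin sensitivity. They differ by C11U and C21U (miR-26a to miR-26b), and miR-26b is 1 base shorter (21 against 22). The log2 ratio of miR-26a over miR-26b was -0.06, -0.35 and -0.05 in vehicle and -0.46, -0.63 and -0.56 in insulin, without overlap and at a mean lower by 0.40 in insulin (difference of means -0.40). The ratios of let-7c and let-7b over miR-98 shifted by -0.42 and -0.41, with overlap between groups (exact permutation p = 0.4 each). In all, 6 of 72 pairs of shared seed among probes with a matched sequence had ratios that did not overlap (8.33%), a share close to that of single miRNAs. The other 4 were miR-1928 with miR-221, miR-34a with miR-34b-5p, miR-148a with miR-148b and miR-29b with miR-29c, shifted by -0.30, -0.25, 0.23 and -0.16. These ratios include background, which weighs most on low counts. The counts of miR-1928, 54 to 119, exceeded the threshold in 3 vehicle libraries and 1 insulin library. Those of miR-34b-5p, 51 to 137, did so in 1 vehicle library and 2 insulin libraries.

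**Figure D5:**
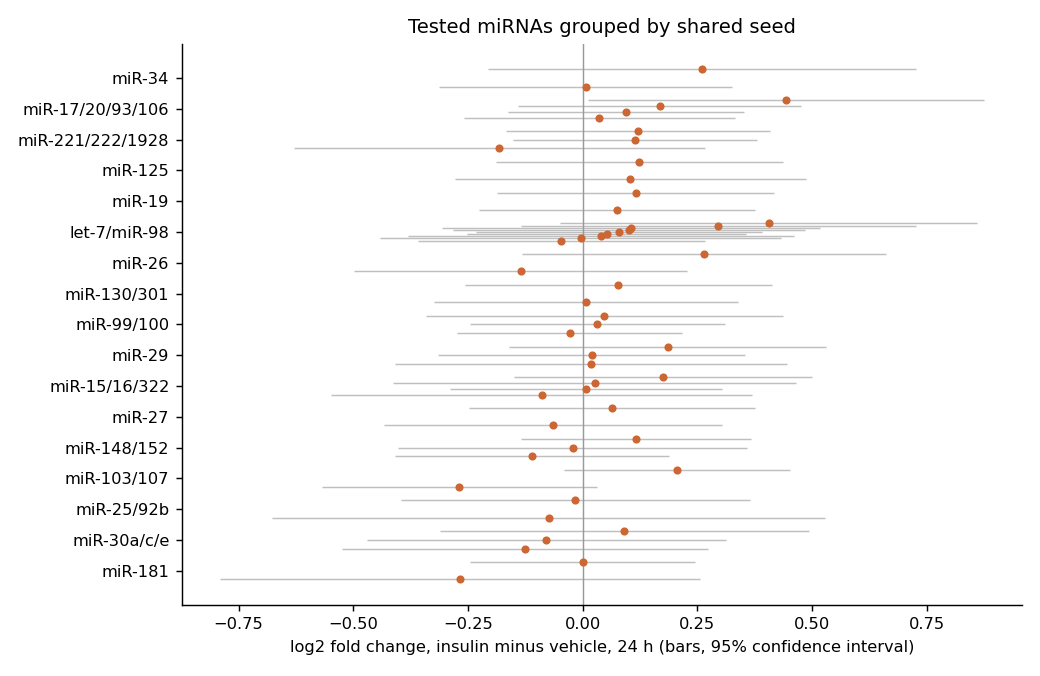
Log2 fold changes of insulin over vehicle at 24 h (points) with 95% confidence intervals (bars), 1 row per seed. Shown are tested miRNAs with a matched sequence that share a seed with another such probe. The 4 members of the row of miR-20a+miR-20b lie above 0, as do all members of some other rows. The points of miR-103 and miR-107 lie on opposite sides of 0.

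The response at 24 h was set against that at 4 h to ask whether it changed with time of exposure. The difference between the responses passed for 0 of 145 miRNAs (0.0%; edgeR over all 12 libraries, smallest adjusted p = 0.989, 0 at an unadjusted p under 0.05), and for 0 with the replicate block (smallest adjusted p = 0.527, 7 at an unadjusted p under 0.05). DESeq2 also called 0, with 4 at an unadjusted p under 0.05. The 4 h libraries were in lanes 1 to 6 and the 24 h libraries in lanes 7 to 12, so time and lane block cannot be told apart, although vehicle and insulin alternated within each block. The called miRNAs of the paired fit differed in their 4 h values: -0.07 for miR-20a+miR-20b, -0.07 for miR-98 and 0.38 for miR-296-5p. Their differences of 0.51 (SE 0.26), 0.47 (SE 0.34) and 0.01 (SE 0.45) did not pass. The differences of smallest p above 0 also included miR-378 at 0.37 (SE 0.20), miR-26b at 0.42 (SE 0.24), miR-181a at 0.30 (SE 0.20) and miR-350 at 0.33 (SE 0.22). Those below 0 were miR-103 at -0.59 (SE 0.33), miR-26a at -0.41 (SE 0.23), miR-24 at -0.38 (SE 0.20), miR-18a at -0.34 (SE 0.25) and miR-30b at -0.31 (SE 0.18). For miR-1983 the response was 0.14 at 4 h and 0.47 at 24 h, a difference of 0.33 (SE 0.25) that did not pass.

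Scaling mattered to the level of all miRNAs together. Scaling to housekeeping mRNAs moved the median log2 fold change from 0.03 to -0.31, and scaling to positive controls moved it to -0.08. Relative to the median of housekeeping scaling, miR-20a+miR-20b was at 0.38, miR-98 at 0.34, miR-296-5p at 0.35 and miR-1983 at 0.40. With that scaling and the replicate block, the miRNAs called were 3 others, all lower in insulin: miR-33, miR-345-5p and miR-467f. Of these miR-345-5p exceeded the threshold in 3 of 3 vehicle and 0 of 3 insulin libraries, so it met the filter only through the group in which it was higher. As miRNA and mRNA probes share a library, a fall of all miRNAs per cell and a rise of the housekeeping mRNAs cannot be told apart.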

How the data were processed

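The authors deposited raw NanoString probe counts and a table of processed signals for each library. The raw table the authors deposited, barcodes counted per lane with no normalization, was classed as estimated counts because instrument header values in its columns are not whole; the design had assumed plain counts, every probe value was whole, and rounding changed nothing. Per the file headers each library was 1 lane. In the deposited signal table each mouse miRNA value is its raw count multiplied by a constant of the lane, and 50 of 50 control and viral values per library equal the raw count; which software made it was not given in the sources used. Groups follow the sample titles. Counts were tested in edgeR 4.0.16 (R 4.3.3, TMM, quasi-likelihood F, Benjamini-Hochberg threshold 0.05) over 145 miRNAs, with DESeq2 1.42.0 and limma 3.58.1 on log2(signal + 1) as alternatives; log2 fold changes are from the fits and CPM are TMM-scaled. The pipeline was tested on simulated data. Single values used exact permutation tests. Same-numbered libraries deviated together (correlations 0.589, 0.527 and 0.263; 1 unmatched combination also had 0.272), so blocked values are printed where they change a call. The members and lists were chosen with earlier results of these data known. Named are the 12 smallest p per direction, the 10 most abundant miRNAs, up to 4 per list, 5 per direction for the difference, and miRNAs tied to insulin action. Viral probes stayed outside the tests. P-values measure the spread between these samples, and those of the blocked fit use the spread fitted for miRNAs of like level. Intervals and thresholds are those of each library's depth, 142491 to 379809 counts.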

Additional observations from a re-analysis of the deposited data

Results flagged for a closer look

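One probe outside the tested set gave a signal in every library. The panel carries 33 probes for viral miRNAs, and mghv-miR-M1-5, named for a mouse gammaherpesvirus miRNA, exceeded the threshold set by the negative controls in 6 of 6 libraries, the only viral probe above it in at least 3. Its counts were 112, 214 and 174 in vehicle and 42, 227 and 198 in insulin. The lowest, 42, was in insulin 24 h replicate 1, whose threshold was also the lowest at 38.9. The vehicle and insulin ranges overlapped.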

How the results depend on the processing

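The count of called miRNAs at 24 h was 0 in the unpaired fits with all 12 libraries, each other scaling, DESeq2, limma, background subtraction and each filter. It was 3 with the replicate block, alone, with background subtraction or scaled to the 100 most abundant miRNAs (the same miRNAs each time, higher), and 3 with the block and housekeeping scaling (others, lower). Leaving out 1 library it ran from 0 to 3, the 3 being without insulin 24 h replicate 1. The cause was not tested. The difference from 4 h had 0 calls throughout, 0 to 0 over libraries left out. Signs were read relative to the median only where it lay furthest from 0 (housekeeping scaling and blocked positive control scaling). So read, 0 of the 24 miRNAs of smallest p changed sign over 635 values. Of 40 others named, 26 did in 162 of 1071 values. Read without the median, housekeeping scaling left 6 of 145 above 0, and miR-107, miR-135a, miR-378, miR-218, let-7d and miR-31 fell below 0. The 24 were chosen by small p in these data, so their stable signs are no separate support. The block changed no other call. Per positive control level, miRNA counts of insulin over vehicle were 0.967, where 1.06 was found without it. Over libraries left out, this ratio ran from 0.780 to 1.29, that of detected miRNAs from 0.853 to 1.13, of the 10 most abundant from 0.994 to 1.02 and of positive controls from 0.932 to 1.17. Signal over background limits the low probes: 33 of the tested 145 were not above threshold in all 6 libraries, and the thresholds ran from 38.9 to 124 counts.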
